A study of Homo sapiens with 2 samples.

Results

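The late steps of cholesterol synthesis were examined through 9 enzymes, LSS, CYP51A1, TM7SF2, MSMO1, NSDHL, HSD17B7, EBP, SC5D and DHCR7, named here in pathway order. All probes that the platform annotation assigns to these genes were taken, 16 probes of the 27577 that carry 1 gene symbol, and 9 genes of the 18665 so named. The cells were KYN2, an established human hepatocellular carcinoma line, and total RNA was hybridised to Illumina HumanWG-6 BeadChips. One group is the line labelled HSF1 knockdown, transfected with a plasmid for a small hairpin RNA against HSF1 (heat shock factor 1, the transcription factor of the heat shock response) and kept as a stable line under puromycin. The other is labelled control, and the labels do not say which plasmid it carried, nor whether either line was 1 clone or a mixed population. Each group has 1 array, so no test between the groups is possible, no p-value is given, and calls of higher or lower go by the size of the difference, with 2-fold as the limit. The array of the line labelled HSF1 knockdown is called the KD-labelled array.

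All 9 enzymes had a higher level on the KD-labelled array, and 7 of them were at least 2-fold higher. The largest difference was in the sterol methyl oxidase MSMO1, at 4.24-fold, followed by the sterol desaturase SC5D at 3.39-fold and the sterol dehydrogenase NSDHL at 3.31-fold. TM7SF2 was 2.52-fold higher, DHCR7 2.16-fold, HSD17B7 2.05-fold and EBP 2.03-fold. The first 2 enzymes in the order, LSS at 1.47-fold and CYP51A1 at 1.25-fold, lay within 2-fold. As background, 46.7% of the 7511 genes detected on both arrays were above 0, 9.89% passed 2-fold upward and 10.4% downward. The median difference over the 9 enzymes was 1.11 on the log2 scale, or 2.16-fold, against -0.06 over those 7511 genes. In RNA of whole cultures, fewer cells of a type and less RNA per cell cannot be told apart.

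Cholesterol is built in the endoplasmic reticulum, first from acetyl units to squalene and then, by these late enzymes, from a closed ring to the finished sterol. LSS folds oxidosqualene into lanosterol. CYP51A1, a cytochrome P450, cuts a methyl group from the ring system, and TM7SF2 reduces the double bond that this leaves. MSMO1, NSDHL and HSD17B7 then act in turn to remove the remaining pair of extra methyl groups. EBP moves a double bond within the ring, SC5D introduces another, and DHCR7 reduces the last one to give cholesterol. When sterols in the membrane run low, the SREBP transcription factors are carried from the endoplasmic reticulum to the Golgi, cut and released, and they switch on genes of this pathway. The liver is a main site of the pathway and also exports the product.

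Promoters were read because these genes moved in 1 direction together. RefSeq windows of 250 bases before to 50 bases after a start site (GRCh38.p14) were found for all 9 genes, 11 windows in all, since SC5D and DHCR7 have 2 each. A few are shown, 5′ to 3′ on the strand of the gene, so that the enzymes with the largest differences can be set beside CYP51A1, the one with the smallest. Capitals mark CCAAT or, on the opposite strand, ATTGG, the box bound by NF-Y, a factor known to work beside SREBP at sterol genes. In SC5D they also mark a match to CACNNCAC, the core of the sterol regulatory element, read on the opposite strand. The windows are MSMO1 at chr4:165327419-165327718 on the plus strand, NSDHL at chrX:152830813-152831112 on the plus strand, the upstream window of SC5D at chr11:121292521-121292820 on the plus strand, and CYP51A1 at chr7:92134428-92134727 on the minus strand.
MSMO1: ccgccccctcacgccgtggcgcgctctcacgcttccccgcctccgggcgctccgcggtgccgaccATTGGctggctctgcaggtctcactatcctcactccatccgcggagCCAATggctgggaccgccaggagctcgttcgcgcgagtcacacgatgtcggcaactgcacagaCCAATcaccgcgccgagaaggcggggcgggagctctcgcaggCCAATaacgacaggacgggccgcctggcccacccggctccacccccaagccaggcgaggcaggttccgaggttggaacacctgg
NSDHL: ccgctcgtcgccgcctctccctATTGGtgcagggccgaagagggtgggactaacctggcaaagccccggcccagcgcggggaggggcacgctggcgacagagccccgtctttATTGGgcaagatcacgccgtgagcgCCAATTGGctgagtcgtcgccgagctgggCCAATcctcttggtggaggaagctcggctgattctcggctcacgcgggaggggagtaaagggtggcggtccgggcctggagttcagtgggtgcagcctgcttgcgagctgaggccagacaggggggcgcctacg
SC5D: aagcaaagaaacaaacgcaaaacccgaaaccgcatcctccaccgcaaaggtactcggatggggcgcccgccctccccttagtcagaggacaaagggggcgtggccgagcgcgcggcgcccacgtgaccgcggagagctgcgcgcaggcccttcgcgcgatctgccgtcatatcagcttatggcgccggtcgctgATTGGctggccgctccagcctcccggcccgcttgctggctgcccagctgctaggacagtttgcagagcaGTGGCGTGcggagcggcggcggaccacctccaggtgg
CYP51A1: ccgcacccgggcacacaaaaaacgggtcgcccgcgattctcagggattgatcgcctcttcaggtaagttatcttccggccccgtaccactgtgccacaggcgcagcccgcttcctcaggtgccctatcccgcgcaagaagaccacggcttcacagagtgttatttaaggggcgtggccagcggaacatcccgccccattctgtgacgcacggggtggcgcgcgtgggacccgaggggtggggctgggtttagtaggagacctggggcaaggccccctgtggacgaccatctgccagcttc

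The NF-Y box and the GC box were each found beside most of these genes. At least 1 CCAAT on either strand stood in a window of 8 of the 9 genes, all but CYP51A1, whereas 39.7% of the 27305 genes with a window had one. NSDHL held 5 matches, MSMO1 4 and EBP 3, and 3.26% of all 35116 windows held 3 or more. HSD17B7 held 2, LSS and TM7SF2 1 each, and SC5D 1 in each window. DHCR7 held 2 in one window and 0 in the other. Whether the number of boxes goes with the size of the difference was not tested. Of the matches in NSDHL, 2 overlap in the run CCAATTGG, which reads the same on both strands. The GC box GGGCGG, read on both strands, stood in windows of 8 of the 9 genes, all but NSDHL, against 48.3% of all genes. Base composition moves with that count. The windows of the enzymes held at least 57.0% G and C, and among the 19139 windows at least as rich, 73.0% had a GC box and 30.1% an NF-Y box. Of the 11 windows of the enzymes, 9 had a GC box and 9 an NF-Y box. The median of all windows was 58.7% G and C. The limit of 57.0% is thus loose and does not match the richer windows of the enzymes. The sterol regulatory element core CACNNCAC was matched in SC5D alone among the 9 genes, against 17.5% of all genes. The heat shock element core GAANNTTC, part of the element that HSF1 binds, was matched in 0 of the 9 genes, against 8.21% of all genes. These are matches of letters in a short window, not sites.

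The arrays spanned a similar range of signals, but detected genes were somewhat dimmer on the KD-labelled array. Over the 7511 genes detected on both arrays, the median difference was -0.14 on the log2 scale as deposited and -0.06 after correction and normalization. The range of signals was 36.4 to 23895 for the control and 36.3 to 24818.2 for the KD-labelled array, and 10804 of 48802 probes were detected on both, at a detection p under 0.01. The HSF1 probes did not settle the label. The brighter one, ILMN_1667060, had signals of 164.3 (control) and 58.2 (KD-labelled), yet its deposited detection values, 0.99473 and 1, run the other way, and the dimmer one, at 77.9 and 81.3, was not detected on either. Each direction below therefore rests on the array's label. Of 12 hepatocyte markers, 10 had a named probe. ALB gave 19292.5 (control) and 20949.9 (KD-labelled), and 8 of the 10 were detected on both. The secreted protein genes AHSG, APOB, APOC3 and APOH lay at least 2-fold lower in the KD-labelled line, while TF (0.81), SERPINA1 (0.64), APOA1 (0.30) and ALB (0.12) were above 0 and within 2-fold. FGB was detected on the control array only (230.6 and 69.6), and TTR on the KD-labelled array only (85.3 and 155.5). The summed signal of the hepatocyte markers was 56437.6 (control) and 59993.2 (KD-labelled). None of 5 endothelial and none of 6 stellate cell or fibroblast markers was detected on either array. Of 6 myeloid markers, LYZ (78.0 and 667.2) and CD14 (76.0 and 256.7) were detected only on the KD-labelled array, CD68 on both, and PTPRC, CSF1R and AIF1 on neither, with summed signals of 854.3 and 1439.7. Of 5 biliary markers, SOX9 (56.1 and 642.6) and EPCAM (58.0 and 103.6) were detected only on the KD-labelled array, SPP1 (11899.9 and 12354.5) on both, and KRT7 and KRT19 on neither, with summed signals of 12131.6 and 13215.1, nearly all of it SPP1. The part of these markers in the enzyme differences was not tested.

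The probes of the enzymes differed in how much they could show. Of the 16 probes, 11 were detected on both arrays and 4 on neither, and 1 was detected on the control array alone. Those 11 were all brighter on the KD-labelled array, 8 of them by at least 2-fold. The 11 include 2 probes each of MSMO1 and DHCR7, so they are not all separate genes. Over all genes detected on both arrays, each by its brightest probe, 46.7% were above 0 and 9.89% were at least 2-fold higher. The like shares over all probes were not computed. The brightest probe by mean level stands for each enzyme, and signals are compared between arrays for 1 probe at a time, not between probes. The deposited signals are given first and the difference after background correction and normalization second. The correction removes a background estimated for each array, so it widens the ratio of dim probes. Normalization moved bright probes as well. The difference of EBP was 0.78 as deposited, 0.998 when normalized without background correction and 1.02 with both.

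**Figure D1:**
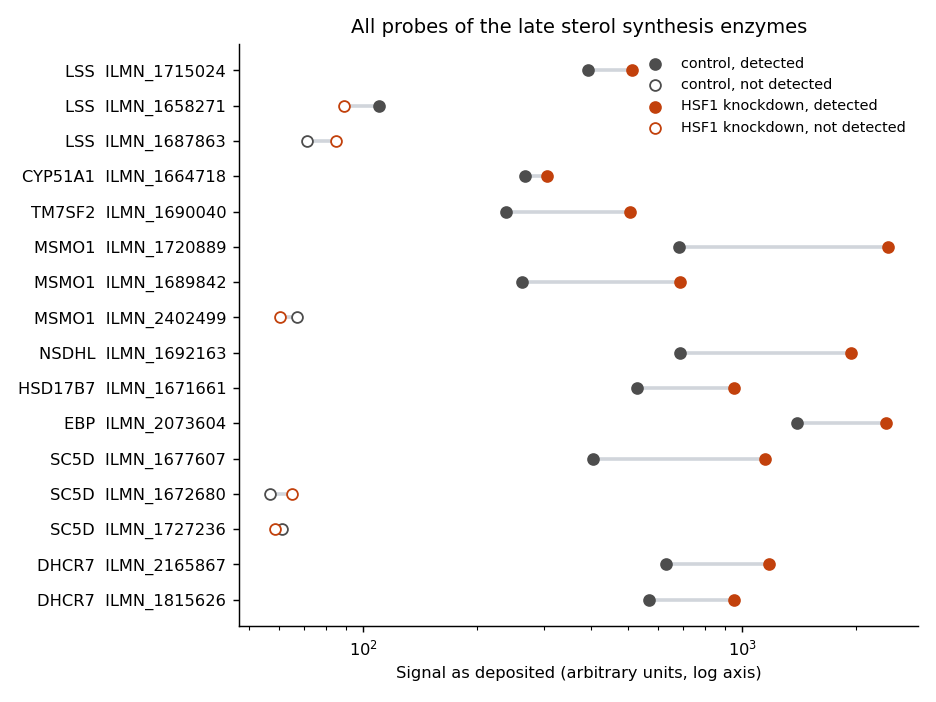
Deposited signals (log axis, arbitrary units) of all 16 probes of the 9 enzymes, in pathway order, on the control array (grey) and the KD-labelled array (orange), each point being 1 array. Filled points were detected at a detection p under 0.01, and the 11 probes filled on both arrays all lie further right on the KD-labelled array.

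The first pair of steps showed the smallest differences. LSS, the cyclase that closes the ring, gave signals of 391.0 (control) and 512.4 (KD-labelled), the order kept from here on, and a difference of 0.55 on the log2 scale. Its other probes, both assigned to another transcript accession, were dim and disagreed with each other. ILMN_1658271 went from 110.1 to 89.3 and was detected on the control array alone, while ILMN_1687863 went from 71.2 to 85.0 and was detected on neither. Their differences were -0.50 and 0.52, so the direction for LSS rests on its brightest probe. CYP51A1, the P450 of the pathway, had signals of 266.9 and 304.8 with its only probe, a difference of 0.32. RefSeq lists 3 pseudogenes named after CYP51A1, and whether the probe also binds them was not tested.

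TM7SF2, the reductase that follows CYP51A1, more than doubled its deposited signal. It was 238.4 and 505.0, a difference of 1.33 on the log2 scale. The same reaction can be carried out by LBR, a protein of the inner nuclear membrane. LBR had signals of 494.8 and 356.3 with its brightest probe, a difference of -0.41, and its second probe detected on both arrays had a difference of -0.27. The reductase genes thus lay on opposite sides of 0, with LBR within 2-fold.

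The enzymes that remove the last extra methyl groups included the largest difference of the pathway. MSMO1, the oxidase that starts each round, had signals of 682.0 and 2417.7 with its brightest probe, a difference of 2.08. A second MSMO1 probe went from 261.8 to 683.4, a difference of 1.66, so both detected probes were past 2-fold. The remaining MSMO1 probe, assigned to another transcript accession, was detected on neither array, at 66.8 and 60.5. NSDHL, the dehydrogenase that splits off the oxidised carbon, had signals of 686.9 and 1934.1, a difference of 1.73. HSD17B7, the ketone reductase that completes the round, had signals of 528.9 and 949.8, a difference of 1.04. Its only probe may also bind pseudogene copies, since RefSeq lists 2 pseudogenes named after it. Ranked by difference among the 7511 genes detected on both arrays, MSMO1 stood at 113, NSDHL at 198 and HSD17B7 at 685.

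The last steps were also higher, SC5D the most. EBP, the isomerase, had signals of 1391.7 and 2394.5, a difference of 1.02. SC5D, the desaturase, had signals of 403.7 and 1148.1 with its bright probe, a difference of 1.76. A second SC5D probe, assigned to the same transcript accession, gave 61.1 and 58.6 and was detected on neither array, as was the remaining one at 56.8 and 64.9. The SC5D value therefore rests on 1 of 3 probes. DHCR7, the final reductase, had signals of 627.7 and 1177.3 with one probe and 567.6 and 952.8 with the other. These gave differences of 1.11 and 0.93, on either side of 2-fold.

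The only spread the files give is that between probes of 1 gene. Over 1352 genes with exactly 2 probes detected on both arrays, 1 probe's difference had an SD of 0.34 on the log2 scale, which leaves out the variation between cultures. The gap between the detected probes of MSMO1 was 0.42 and of DHCR7 0.18. From largest to smallest, the differences ran MSMO1, SC5D, NSDHL, TM7SF2, DHCR7, HSD17B7, EBP, LSS, CYP51A1. No gap between neighbours in this order exceeded 0.48, the SD expected of a gap between 2 probes, the widest being 0.47 between EBP and LSS. Of the 36 pairs of enzymes, 23 had a gap above it. The order between neighbours is therefore not resolved. MSMO1, SC5D and NSDHL, among others, lay above LSS and CYP51A1 by more than this spread. The spread is 1 SD and holds no variation between cultures, so a gap above it is not thereby resolved.

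**Figure D2:**
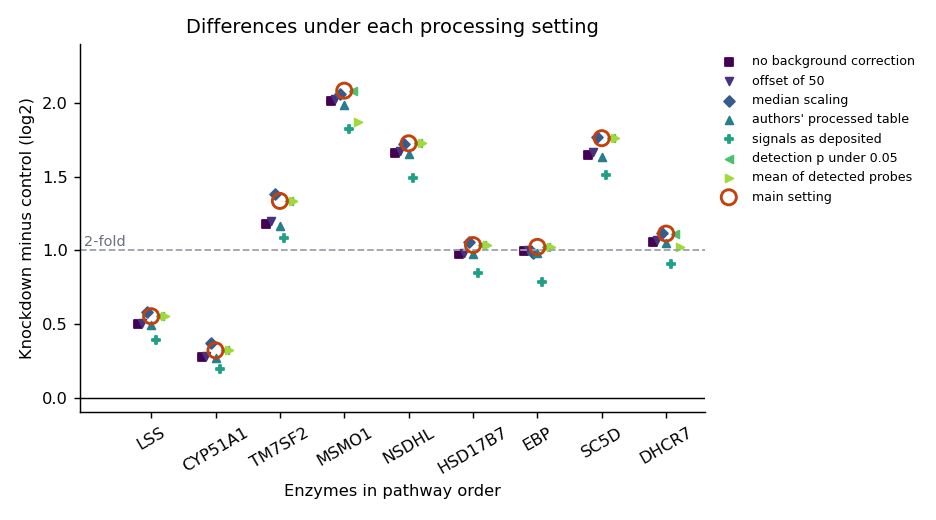
Difference between the KD-labelled and the control array (log2) for the 9 enzymes in pathway order, under the main setting (open circles) and 7 alternative settings (small symbols), with 2-fold as a dashed line. MSMO1, NSDHL, SC5D and TM7SF2 stay above 2-fold throughout, and LSS and CYP51A1 stay below it. HSD17B7 and EBP cross the line, down to 0.84 and 0.78 on the signals as deposited.

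The count of 7 enzymes depends on a few that sit on the 2-fold line. HSD17B7, EBP and DHCR7 were within 0.2 of it on the log2 scale. HSD17B7 and EBP each lay under 2-fold in 4 of 7 alternative settings, HSD17B7 at 0.97 and EBP at 0.998 without background correction. On the signals as deposited, HSD17B7 was at 0.84 and EBP at 0.78. DHCR7 lay under 2-fold in 1 of the 7, at 0.91 on the signals as deposited. MSMO1, NSDHL, SC5D and TM7SF2 were at least 2-fold higher in all 7. Not every setting could move every enzyme. Detection at a p under 0.05 changed no enzyme's value, and the mean of detected probes changed only MSMO1 and DHCR7. Among the 3680 genes with a mean level in the range of the enzymes, 11.1% were at least 2-fold higher.

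**Figure D3:**
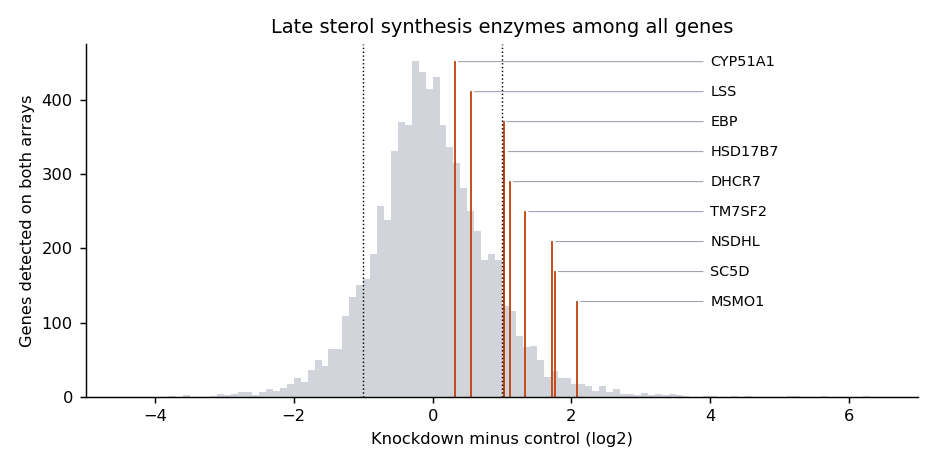
Number of genes detected on both arrays by their difference between the KD-labelled and the control array (log2, bins of equal width), with 2-fold either way as dotted lines. The 9 enzymes are marked in orange (the height of a line has no meaning). All lie right of 0, with MSMO1 the furthest right at 2.08.

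Of the enzymes that lead to squalene oxide, 2 were at least 2-fold higher. Of 11 listed genes of the mevalonate and squalene steps, 9 had a named probe, and 8 were detected on both arrays. Of these, 7 were above 0, against 46.7% of all genes, and 2 were at least 2-fold higher, against 9.89%. At least 2-fold lower were 0, against 10.4%, and 6 lay within 2-fold, with a median difference of 0.69. MVD, which makes isopentenyl diphosphate, had signals of 140.8 and 266.1, a difference of 1.22. SQLE, the epoxidase that makes the substrate of LSS, had signals of 1104.9 and 1957.8, a difference of 1.05, and its second probe gave 1.14. IDI1, an isomerase, was at 0.88 and ACAT2, the thiolase of the first step, at 0.76. PMVK, the kinase of phosphomevalonate, was the only one below 0, at -0.14, and the count of 2 fell to 0 in the authors' processed values. Whether the late enzymes differed more than the early ones was not tested.

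Genes close to the late enzymes in reaction or sequence lay within 2-fold by their brightest probes. Most genes did so, since of all genes detected on both arrays 9.89% passed 2-fold upward and 10.4% downward. Of 7 listed companions and homologues, 5 had a named probe and 3 were detected on both arrays, all within 2-fold. These were LBR (-0.41), EBPL (0.48), a relative of EBP, and TMEM97 (0.01), of the same family. ERG28, a scaffold of the demethylation complex, and FAXDC2, a relative of MSMO1, were detected on neither array. MSMO1 and SC5D take electrons from cytochrome b5, and CYP51A1 from POR. Of 5 measured electron donors, 0 were past 2-fold by their brightest probe, with a median of 0.02. Lists this small can lie within 2-fold without differing from all genes. CYB5A, the cytochrome b5 of this membrane, had signals of 4631.0 and 6999.9, a difference of 0.77, and its second probe gave 1.002. CYB5B was at 0.59, the reductase gene CYB5R3 at -0.58 and POR at -0.06.

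**Figure D4:**
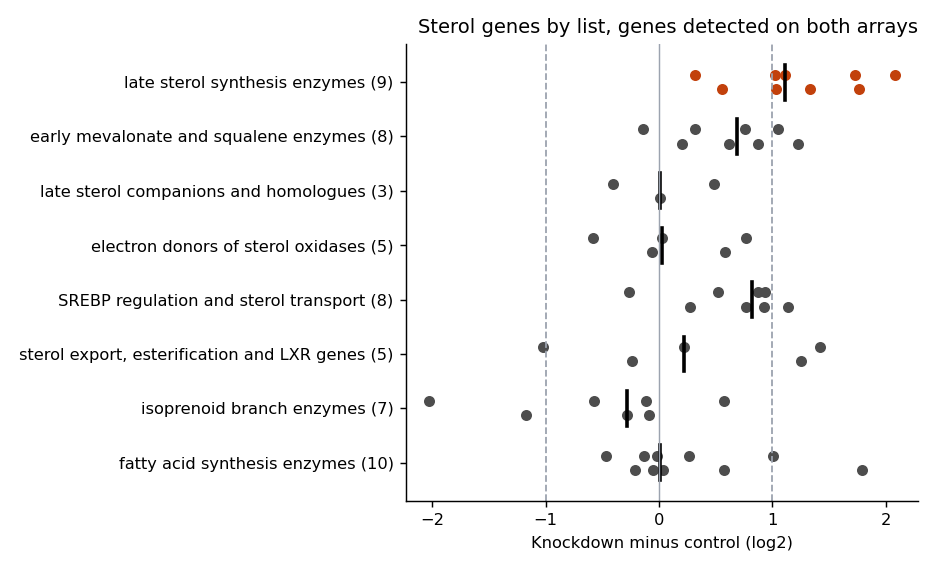
Differences between the KD-labelled and the control array (log2) of the genes of each list that were detected on both arrays (number in brackets), each point being 1 gene by its brightest probe, with the median as a black bar and 2-fold as dashed lines. The late enzymes have a median of 1.11, the early enzymes of 0.69 and the SREBP regulation and sterol transport genes of 0.82.

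Among the genes detected on both arrays that sense and move sterols, INSIG1 alone passed 2-fold. Of 13 listed genes of SREBP regulation and sterol uptake and transport, 11 had a named probe and 8 were detected on both arrays. At least 2-fold higher was 1 of the 8, beside 9.89% of all genes, and 0 were lower, beside 10.4%. Of the 8, 7 were above 0, beside 46.7% of all genes, and the median was 0.82. That gene was INSIG1, which holds SREBP in the endoplasmic reticulum and is itself a target of SREBP, with signals of 755.9 and 1425.0 and a difference of 1.13. Its second detected probe gave 0.22, so its probes disagree. NPC1 (0.94) and NPC2 (0.87), which release cholesterol from lysosomes, and MYLIP (0.93), a ubiquitin ligase that removes lipoprotein receptors, lay within 2-fold. The gene of SREBP-1, SREBF1, was at 0.52 and that of the escort protein, SCAP, at -0.27. SREBF2, the gene of SREBP-2, was close to the detection limit, with signals of 94.6 and 97.1. MBTPS2, a protease that releases SREBP, was detected on the control array alone, with signals of 141.5 and 83.4, and was at least 1.94-fold lower on the corrected scale. Such bounds hold for that scale alone, since the background correction widens the ratio of dim probes beyond that of the deposited signals.

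Neighbouring branches of lipid synthesis held differences in both directions. Of 12 genes of fatty acid synthesis, 10 were detected on both arrays, with a median of 0.01. Past 2-fold lay 2 upward, beside 9.89% of all genes, and 0 downward, beside 10.4%. ACSS2, which activates acetate, had signals of 670.3 and 1954.5, a difference of 1.79. The desaturase gene SCD was at 1.01, and at 0.997 in the authors' processed values. ELOVL6 was at 0.57 and FADS1 at -0.47. The malic enzyme gene ME1 was detected on the control array alone, with signals of 220.5 and 89.6, and was at least 3.38-fold lower on the corrected scale. Of 8 measured genes of the isoprenoid branches, which leave the pathway before squalene, 7 were detected on both arrays, with a median of -0.28. At least 2-fold higher were 0, beside 9.89% of all genes, and 2 were lower, beside 10.4%. PDSS1, which makes the side chain of coenzyme Q, had signals of 715.5 and 196.0, a difference of -2.02. DHDDS, which makes dolichol, was at -1.18, but at -0.93 in the authors' processed values, and its second probe gave -0.67. FNTB, of the enzyme that attaches farnesyl groups to proteins, was at -0.57 and PDSS2 at 0.58. Of 10 measured genes of sterol export, esterification and LXR control, 5 were detected on both arrays, with a median of 0.22. By at least 2-fold, 2 were higher and 1 lower, beside the same 9.89% and 10.4% of all genes. CYP27A1, a sterol hydroxylase, was at 1.42 and LPCAT3 at 1.25, while the cholesterol exporter ABCA1 had signals of 599.6 and 294.3, a difference of -1.03. In the authors' processed values ABCA1 was within 2-fold, at -0.91. NR1H3, the gene of a sterol-sensing receptor, was at -0.23.

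The enzymes lie on 6 chromosomes, and the median of the genes around them lay between -0.29 and 0.42. The nearest 10 genes on each side that were detected on both arrays were taken in RefSeq order. Around MSMO1 their median difference was -0.05, around SC5D -0.29, around DHCR7 -0.07, around HSD17B7 -0.03 and around EBP 0.005. None of the 20 genes around each of these 5 enzymes had a difference above that of the enzyme. CPE, directly beside MSMO1, was left out because the control array did not detect it. Its difference, 2.98, was larger than that of MSMO1, but rests on an undetected control signal. Around NSDHL the median was 0.38, and 5 of its 20 neighbours were at least 2-fold higher. NSDHL and EBP lie on chromosome X, where 226 other genes were detected on both arrays and 17.7% of them passed 2-fold upward. Around TM7SF2 the median was 0.42, with 2 of 20 neighbours above it. Around CYP51A1 the median was also 0.42, and 11 of its 20 neighbours had a larger difference than CYP51A1 itself. Around LSS, near the end of chromosome 21, 15 genes were found, with a median of 0.004. The part of the chromosome in these differences was not tested.

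**Figure D5:**
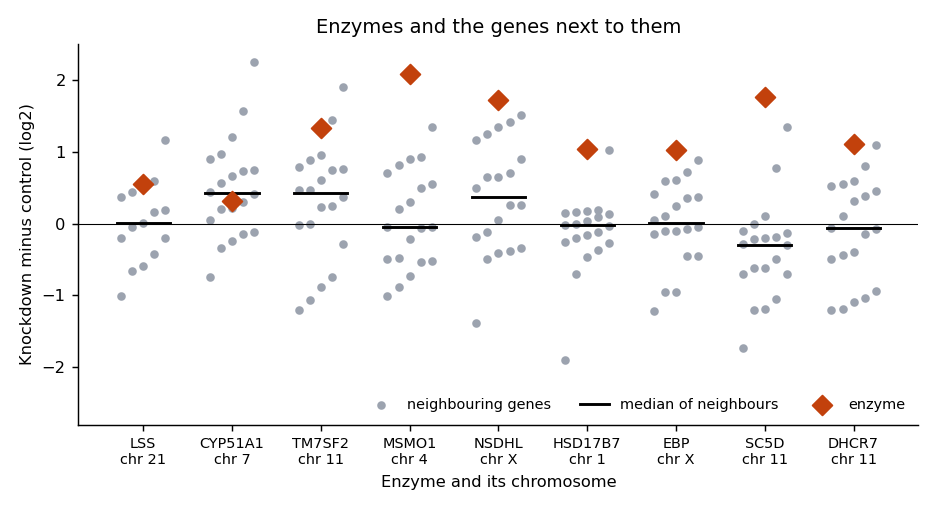
Difference between the KD-labelled and the control array (log2) of each enzyme (diamond) and of up to 10 genes on each side of it that were detected on both arrays (grey points, median as a bar), by enzyme and chromosome. MSMO1, NSDHL, HSD17B7, EBP, SC5D and DHCR7 lie above all the neighbours shown, and CYP51A1 lies near the median of its own. CPE, beside MSMO1, is not shown, as it was not detected on the control array.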

How the data were processed

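The deposited table of non-normalized values holds, per the file headers, a bead intensity and a detection value for 48802 probes on each of 2 arrays, with no correction or normalization recorded. The deposited detection columns, headed as p-values, hold a fraction that grows with the signal, so 1 minus this fraction was used as the detection p. Log2 values make up the authors' processed table. Their medians are 0.00222 (control) and -0.00275 (knockdown), and their difference followed the log2 signal ratio with slope 0.981 over probes detected on both arrays. The baseline of their centring is unknown, so differences alone were used. Scanner and software: not given in the sources used here.

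Gene names came from the 2016 platform annotation: 27577 probes had 1 gene, 13 several and 21212 none, and 27540 of the named matched RefSeq gene numbers. Signals were corrected, quantile-normalized and put on the log2 scale by neqc (limma 3.58.1, R 4.3.3; offset of 16), tested on simulated data. A gene is its probe with the highest mean level. Detection is a p under 0.01, and for a gene detected on 1 array a bound is given, against its own level or the lowest detected level (5.84 control, 5.70 knockdown, without the HSF1 probe of contradictory detection) on the other array, whichever was higher. All 9 enzymes and every HSF1 probe were named, and in each list up to 4 genes with the largest difference, those past 2-fold and all late companions. Genes listed without a named probe were not analysed here. Members and lists were chosen with earlier results of these data known. Alternatives covered background, offset, scaling, detection, probe choice, fold size and the authors' values. Promoters are RefSeq's. A planned comparison of protein sequences was not run.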

Additional observations from a re-analysis of the deposited data

How the results depend on the processing

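With 1 array per group no result has a replicate check, and brightness limits the dim probes of LSS, MSMO1 and SC5D. No paired analysis was possible because each group holds 1 array. Every enzyme was above 0 in all 7 alternatives, the lowest value being 0.19 for CYP51A1 on the signals as deposited, a setting chosen after seeing the data. No value of an enzyme or of a probe moved by more than the probe SD of 0.34. The median of the enzymes ran from 0.91 on the signals as deposited to 1.12 with median scaling, and the count past 2-fold from 4 to 7. It was 5 without background correction and in the authors' processed values, 6 with an offset of 50 and with median scaling, and 4 on the signals as deposited. At 1.5-fold it was 7, beside 20.8% of all genes. The 2 early enzymes became 1 without background correction and with an offset of 50, and 0 in the authors' values and on the signals as deposited. The 1 gene of SREBP regulation became 2 with median scaling and 0 on the signals as deposited. Genes at least 2-fold higher numbered 743, and 448 on the signals as deposited, where 38.0% of called genes were higher against 48.8%. The cause was not tested.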

Other observations

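The coding genes directly beside the enzymes, named here after their values were seen, held a few large differences. CETN2, which encodes a centrin and lies next to NSDHL, had signals of 889.5 (control) and 1930.8 (KD-labelled), a difference of 1.35 on the log2 scale. CPE, a carboxypeptidase gene next to MSMO1, went from 82.3 to 355.0 and was detected on the KD-labelled array alone. Its difference of 2.98 exceeded the 2.08 of MSMO1, but rests on an undetected control signal. NADSYN1, an enzyme gene of NAD synthesis next to DHCR7, went from 138.0 to 83.7 and was detected on the control array alone. VPS51, next to TM7SF2, was at 0.76, and MCM3AP, next to LSS, at -0.05.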
